A study of Mus musculus with 8 samples.

Results

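The replication-dependent histone genes are the genes of the mouse Hist1, Hist2, Hist3 and Hist4 clusters, taken here as every row of the expression table whose symbol begins with Hist1h, Hist2h, Hist3h or Hist4h. The rule used names only, and found 69 members among 25124 rows. They encode 6 H1 linker histones, 19 H2A, 19 H2B, 12 H3 and 13 H4 histones, counted by the class in the symbol. Of these genes, 55 belong to Hist1 on chromosome 13, 10 to Hist2 on chromosome 3, 3 to Hist3 on chromosome 11 and 1, Hist4h4, to Hist4 on chromosome 6.

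Livers came from C57BL/6 mice that were fasted overnight and then received vehicle or GW4064, a synthetic agonist of the bile acid receptor FXR, at 30 mg/kg for 1 h. Total RNA was measured by RNA-seq in 2 libraries per treatment from WT mice, each library made from the pooled liver RNA of 2 mice. Nascent RNA was measured by GRO-seq, a nuclear run-on assay that captures RNA being elongated in isolated nuclei, with 1 column of values each for WT vehicle, WT GW4064, FXR KO vehicle and FXR KO GW4064. The vehicle is DMSO in the sample labels and corn oil in the methods of the study. The libraries labelled WT and FXR KO are described there as Fxr-Flox mice and as Fxr-LKO mice, in which Cre driven by the albumin promoter removes floxed Fxr in hepatocytes, so that other liver cells would keep the gene. Ages were not given in the sources used here. The study describes more than a single GRO-seq sample per group, and how these were combined into the columns is not given in the sources used here. With 1 column per group, GRO-seq differences are given with counting intervals and without a test.

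Histone proteins package DNA into nucleosomes: H2A, H2B, H3 and H4 form the core particle, and H1 binds the linker DNA. The replication-dependent genes lie in clusters, mostly lack introns and are known for strong expression in S phase, when new DNA must be packaged. Their mRNAs end in a conserved stem-loop rather than a poly(A) tail, and the stem-loop binding protein SLBP takes part in their processing, translation and decay. Most hepatocytes of an adult liver are not dividing. The study removed ribosomal RNA before RNA-seq, and its sources name mRNA library kits (TruSeq Stranded in the labels, Kapa HyperPrep in the methods). Whether a poly(A) selection took place is not stated unambiguously, and its part in the RNA-seq levels of these genes was not tested.

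The stem-loop is the sequence feature that sets these mRNAs apart, so it is shown for the members whose RNA was most abundant and for each form found. A search of GENCODE vM21 transcripts for GGNNCTTTTNAGNGCC found it in 42 of the 69 members and in 10 of 55272 other gene symbols (0.0181%). Of the 27 members without a match, 15 have no annotated transcript of 420 bases or more, so that the annotation may stop before the stem-loop. The lines below give mm10 positions of the capital letters, which mark the searched sequence, with its flanks in lower case.
Hist1h1c, chr13:23739512-23739527 (+ strand): ccaaaaGGCTCTTTTCAGAGCCacca
Hist1h4d, chr13:23581950-23581965 (+ strand): accaaaGGCCCTTTTCAGGGCCacta
Hist1h3e, chr13:23561903-23561918 (- strand): caaaacGGCTCTTTTAAGAGCCacct
Hist2h4, chr3:96262939-96262954 (- strand): cctaacGGCCCTTTTTAGGGCCaacc
Hist2h2ac, chr3:96220418-96220433 (- strand): caaaaaGGCTCTTTTTAGAGCCacca
These lines hold the 5 forms that occurred. The first form was shared by 26 members, among them Hist1h1c, Hist1h1e and Hist1h1d, and the second by 7, all of them H4 genes, such as Hist1h4d, Hist1h4h, Hist1h4c and Hist4h4. The form of Hist1h3e occurred in 6 members, that of Hist2h4 in 2, and that of Hist2h2ac in 1. In the 36 members with 1 copy for which the match could be placed beside the row, the stem-loop ended 4 to 8 bases (median 5) before the end of the row. In these 36 members the quantified rows therefore stop where the processed histone mRNA is known to end. RNA that continues past the stem-loop is not counted in them. This does not hold for every member: the row of Hist2h2be, which has no match, is 2666 bases long.

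Promoter sequences from RefSeq (GRCm38.p6, which is mm10; 250 bases before to 50 after the annotated start) were matched for 62 of the 69 members. Those of Hist1h2ao, Hist1h2ap, Hist1h2bq, Hist1h2br and Hist2h2aa1 lay 3787 to 23544 bases from the start of the row. TATAAA, read on both strands, was present in 56.5% of these against 13.6% of all 32851 promoters, and CCAAT in 85.5% against 37.4%. CCAAT was found in every H1, H2A, H2B and H3 promoter matched and in 3 of 12 H4 promoters. The octamer ATTTGCAT, known from H2B promoters, was found in 7 of 18 H2A and 7 of 16 H2B promoters, in none of the 6 H1, 10 H3 and 12 H4 promoters, and in 1.74% of all promoters. Windows of neighbouring H2A and H2B genes on opposite strands can overlap, as those of Hist1h2ae and Hist1h2bg do. A match in the shared bases is then counted for both genes, so the H2A and H2B counts are not independent. The following 4 promoters belong to members with a clear RNA signal or, for Hist1h2ac, to a divergent pair described further on. Capitals mark these motifs or their reverse complements.
Hist1h1c, chr13:23738557-23738856 (+ strand): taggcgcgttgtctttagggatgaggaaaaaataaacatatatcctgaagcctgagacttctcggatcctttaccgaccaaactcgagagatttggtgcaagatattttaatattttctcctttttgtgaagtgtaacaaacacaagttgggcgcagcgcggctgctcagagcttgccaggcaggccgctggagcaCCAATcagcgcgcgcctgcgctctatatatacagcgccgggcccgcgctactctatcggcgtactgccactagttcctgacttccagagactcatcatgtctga
Hist1h4d, chr13:23581318-23581617 (+ strand): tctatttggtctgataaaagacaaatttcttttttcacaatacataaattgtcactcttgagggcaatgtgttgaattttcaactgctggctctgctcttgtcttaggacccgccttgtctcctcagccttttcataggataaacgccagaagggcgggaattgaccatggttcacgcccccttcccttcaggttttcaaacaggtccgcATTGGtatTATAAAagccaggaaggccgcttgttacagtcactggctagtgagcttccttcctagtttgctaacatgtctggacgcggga
Hist1h2ac, chr13:23683910-23684209 (- strand): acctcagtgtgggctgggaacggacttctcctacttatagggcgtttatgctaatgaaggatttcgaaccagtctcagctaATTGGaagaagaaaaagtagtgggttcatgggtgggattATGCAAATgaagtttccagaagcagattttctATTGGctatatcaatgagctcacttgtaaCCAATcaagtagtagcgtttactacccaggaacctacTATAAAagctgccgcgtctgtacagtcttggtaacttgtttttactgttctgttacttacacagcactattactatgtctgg
Hist2h2ac, chr3:96220831-96221130 (- strand): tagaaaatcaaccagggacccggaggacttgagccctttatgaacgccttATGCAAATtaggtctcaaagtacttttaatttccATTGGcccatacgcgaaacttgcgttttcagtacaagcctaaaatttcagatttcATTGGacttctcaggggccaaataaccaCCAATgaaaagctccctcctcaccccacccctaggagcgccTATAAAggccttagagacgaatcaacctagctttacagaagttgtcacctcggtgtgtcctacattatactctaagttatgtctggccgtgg
A match is a description of the sequence and not evidence of binding. The Hist1h1c window holds 1 CCAAT and the Hist1h4d window a TATAAA beside an inverted CCAAT, whereas both H2A windows hold an octamer, several CCAAT matches and a TATAAA. The latter was found in promoters of members that reached a mean of 0.5 RPKM in RNA-seq (21 of 38) and in those below it (14 of 24).

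The library totals rebuilt from the values were 13924450 to 14047217 reads for RNA-seq, 14173742 and 10593317 for GRO-seq of WT vehicle and WT GW4064, and 5141667 and 5069383 for FXR KO vehicle and FXR KO GW4064. Nr0b2, a known FXR target, rose from 6.83 and 4.04 RPKM in the vehicle to 31.5 and 30.5 RPKM in the GW4064 RNA-seq libraries; nascent Nr0b2 was 3.65 and 36.6 RPKM in WT vehicle and GW4064 and 0.118 and 1.19 RPKM in the same treatments of FXR KO. The gene for FXR itself, Nr1h4, had 15.1 and 4.23 RPKM in WT vehicle and GW4064 GRO-seq and 16.7 and 20.6 RPKM in the libraries labelled FXR KO. Its row spans the whole gene with introns, so this value does not check the deletion. Hepatocyte markers summed to 338 to 384 RPKM in RNA-seq and 543 to 906 RPKM in GRO-seq, the most of the 8 marker lists in every library.

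Histone genes gave few reads. All members together held 1841 and 1808 reads in the vehicle and 1812 and 2039 reads in the GW4064 RNA-seq libraries, or 129 to 146 RPM, the reads scaled to the library total. In GRO-seq they held 984, 606, 371 and 368 reads in WT vehicle, WT GW4064, FXR KO vehicle and FXR KO GW4064, or 57.2 to 72.6 RPM. The median member is 482 bases long, against 13173.5 bases for all rows, so 1 read at this length is worth 0.148 to 0.149 RPKM in RNA-seq and 0.146 to 0.409 RPKM in GRO-seq. Only 23 members reached 20 reads in any library, and 43 reached the mean of 0.5 RPKM that was required for testing in RNA-seq.

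The H4 and H1 genes dominated. Summed over its members, H4 had 104 to 122 RPKM in the 4 RNA-seq libraries, H1 53.1 to 61.9, H2B 38.1 to 41.7, H2A 25.7 to 30.5 and H3 20.1 to 24.7 RPKM. The ranges of the classes did not overlap. In reads, H4 held 32.1% to 34.3% and H1 30.7% to 33.4% of the member total in RNA-seq, which overlap. The effect on this ranking of sequence shared between genes, described further on, was not tested. H4 also led in GRO-seq with 52.7 to 65.7 RPKM, followed by H1 with 18.2 to 28.8, H2B with 17.5 to 24.8 and H2A with 16.9 to 23.7 RPKM, whose ranges overlapped, while H3 was lowest with 7.09 to 11.2 RPKM. A few genes carried each assay. The top 10 members held 67.5% of all member reads in RNA-seq and the top 10 held 64.4% in GRO-seq, and 7 of the 8 members with most reads were shared between the assays.

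**Figure D1:**
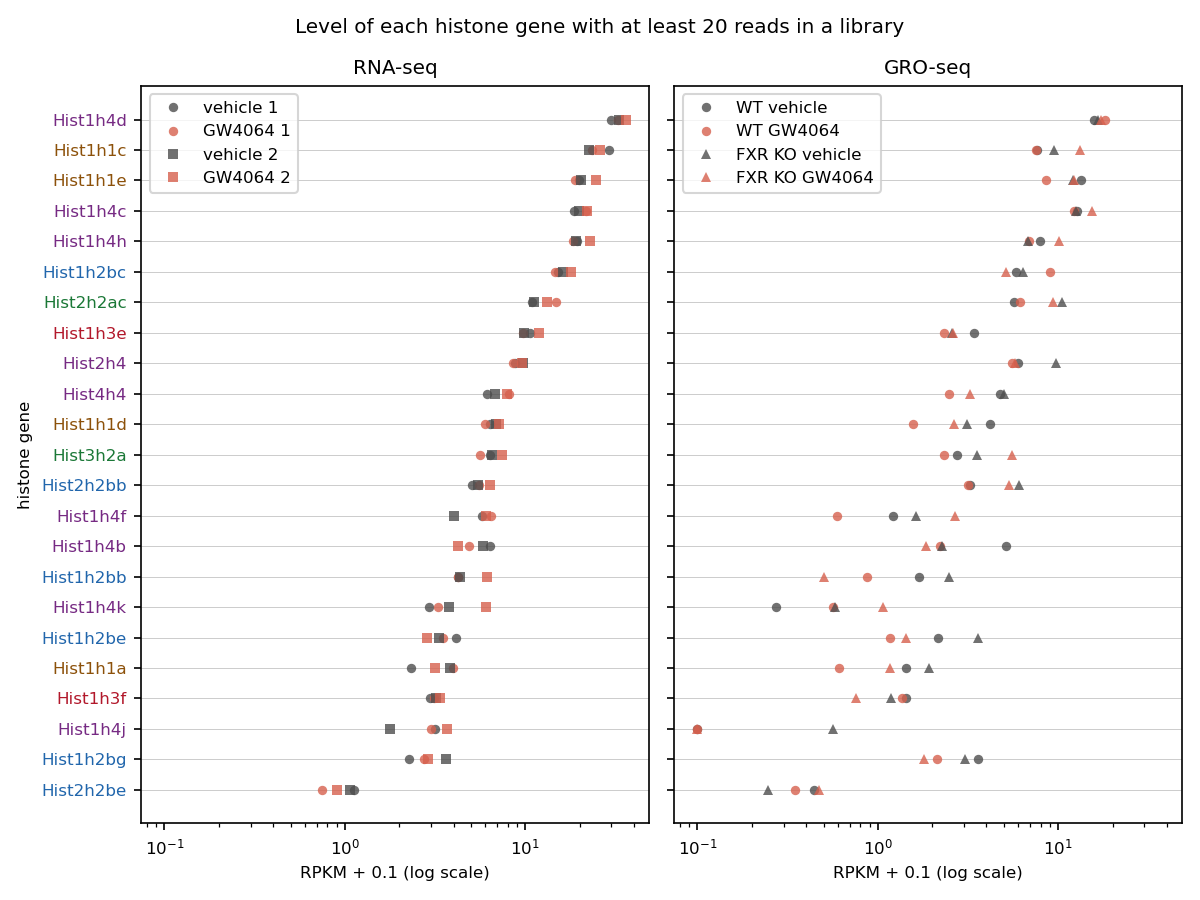
Level of the 23 histone genes with at least 20 reads in a library, as RPKM plus 0.1 on a log axis, with RNA-seq on the left and GRO-seq on the right; each point is 1 library and gene names are coloured by histone class. Hist1h4d, Hist1h1c, Hist1h1e, Hist1h4c and Hist1h4h lead RNA-seq, and the vehicle and GW4064 points of most genes lie close together there, with a wider scatter in GRO-seq.

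Hist1h4d, an H4 gene, had the highest RNA level per length, with 29.9 and 32.8 RPKM in the vehicle and 32.6 and 36.0 RPKM in the GW4064 libraries. Hist1h1c, a linker histone gene that is also expressed outside S phase, followed with 29.0 and 22.5 RPKM in vehicle and 23.3 and 26.0 RPKM in GW4064, from the largest number of reads of any member (229 to 293 per library). The ranges of Hist1h1e and Hist1h4h overlapped with it, that of Hist1h4c lay below it, and these 3 overlapped with each other. The linker histone gene Hist1h1e had 19.9 and 20.2 RPKM in vehicle and 18.9 and 24.6 RPKM in GW4064. The H4 gene Hist1h4c had 18.6 and 19.8 RPKM in vehicle and 21.5 and 22.0 RPKM in GW4064, and Hist1h4h had 19.2 and 19.0, then 18.2 and 22.7 RPKM. Hist1h2bc was the leading H2B gene, at 15.03 and 16.1 RPKM in vehicle and 14.4 and 17.9 RPKM in GW4064. Hist2h2ac led H2A with 10.8 and 11.1 RPKM in vehicle and 14.6 and 13.02 RPKM in GW4064, so its GW4064 values lay above both vehicle values. Hist1h3e led H3 with 10.6 and 9.71 RPKM in vehicle and 9.65 and 11.7 RPKM in GW4064, which overlap.

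Other members with most RNA-seq reads were at lower levels. Hist2h4 had 8.62 and 9.67 RPKM in vehicle and 8.44 and 9.52 RPKM in GW4064. The linker histone gene Hist1h1d had 6.30 and 6.80, then 5.84 and 7.01 RPKM. Hist3h2a had 6.23 and 6.46, then 5.52 and 7.33 RPKM. In these 3 genes the treatments overlapped, whereas Hist4h4 was at 6.06 and 6.66 RPKM in vehicle and 8.03 and 7.84 RPKM in GW4064.

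The remaining members were near or below detection. In 46 members no library reached 20 reads. No read was counted in any library for Hist1h2aa and Hist1h2ba, which are known as testis-type histone genes, nor for Hist1h2ap and Hist1h2ao, which the table lists in 2 copies. A count of 0 allows up to 3 reads, which at the median member's length is 0.443 to 0.447 RPKM in RNA-seq and 0.439 to 1.23 RPKM in GRO-seq. These limits, like the intervals given for reads, cover counting error only, since PCR copies are not independent molecules. Hist1h1t, the testis-type linker histone gene, had at most 2 reads in a library. The rows of Hist2h2aa1 and Hist2h2aa2 overlap on opposite strands and held the same reads in every library. Those of Hist1h2bq and Hist1h2br did so as well, so strands were not told apart in the counting. These genes are also listed in 2 copies. GENCODE places Hist2h2aa1 (from base 96245497) and Hist1h2bq (from base 21806612) away from their rows, which start at 96239779 and 21833743. The overlap is thus one of rows and not of the annotated genes.

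The first comparison asked which transcripts change within 1 h of FXR activation. No histone member passed the threshold (limma on log2(RPKM + 0.1), Benjamini-Hochberg adjusted p under 0.05 over 11408 genes). The count was 0 of 43 tested, where 3.28% of all genes tested passed, 243 (2.13%) higher and 131 (1.15%) lower. The smallest adjusted p of a member in the limma fit was 0.128. At an unadjusted p under 0.05 there were 4 higher and 3 lower members, 7 of 43, against 21.2% of all genes, 10.6% in each direction. Limma-voom on the rebuilt reads called 0 members and found 0 at an unadjusted p under 0.05. Over all 11408 genes it called 1003 and found 24.0% at an unadjusted p under 0.05.

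The median log2 fold change of the 43 members was 0.09, and that of all genes was -0.003. Of the members 27 were positive and 16 negative (62.8% positive), where 49.2% of all genes tested were positive. With quantile normalization the median of the members was -0.007 and 21 were positive, so its sign turned with the scaling. Without the second GW4064 library the median was 0.006. That GW4064 library held more histone reads (146 RPM) than the others (129 to 132 RPM). Both GW4064 values lay above both vehicle values in 12 members and below them in 4, where 26% and 28.1% of all genes tested did so.

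**Figure D2:**
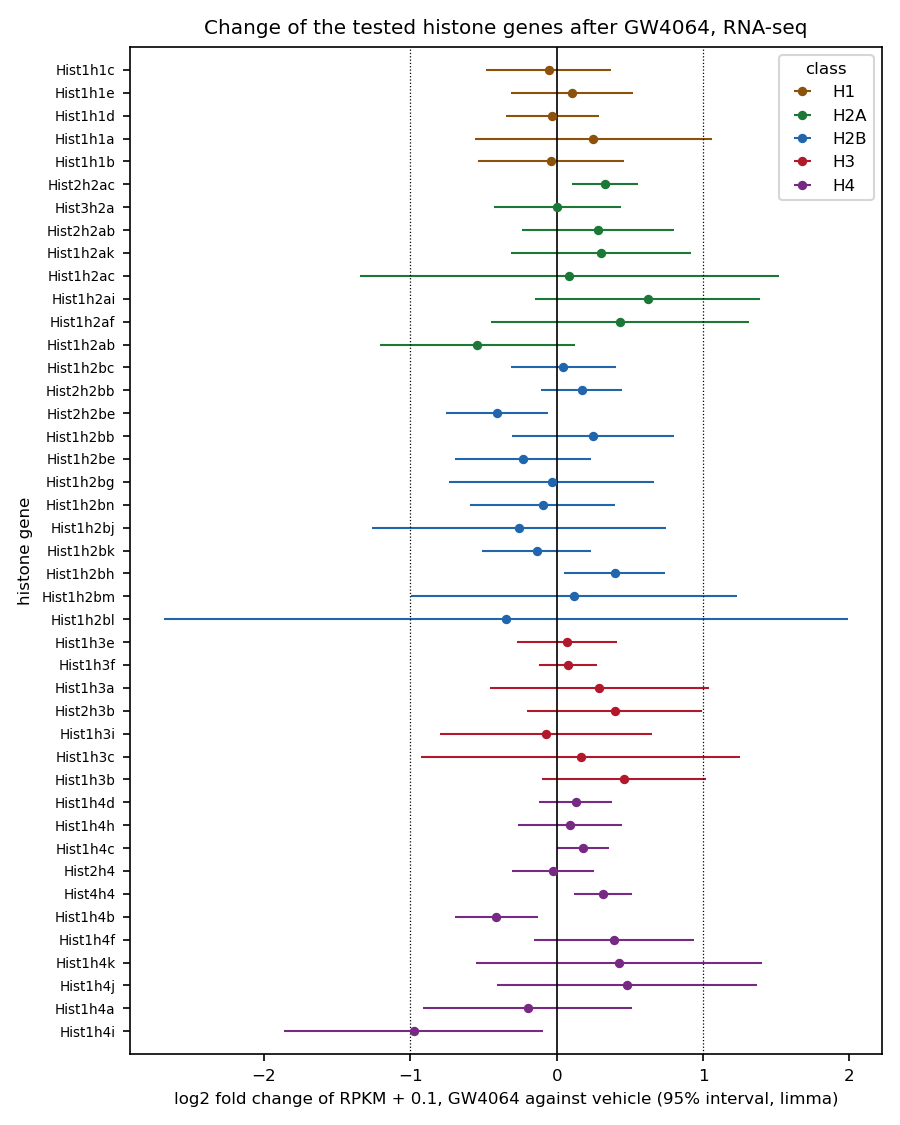
Fitted log2 fold change of RPKM plus 0.1 for the 43 tested histone genes, GW4064 against vehicle in RNA-seq, with 95% intervals from limma; colours give the histone class, genes run by class and by reads, and dotted lines mark 2-fold. Intervals of 36 genes include 0, and 29 lie wholly within 2-fold in both directions.

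The median half-width of the 95% interval was 0.52 on the log2 scale for members and 0.23 for all genes. In 29 members the interval excluded a 2-fold change in both directions, and in 16 a 1.5-fold change. For Hist1h1c the means were 25.8 ± 4.62 RPKM in vehicle and 24.6 ± 1.89 RPKM in GW4064 (SD, n = 2 libraries each). For Hist1h4d they were 31.4 ± 2.09 and 34.3 ± 2.42 RPKM, and for Hist1h1e 20.04 ± 0.272 and 21.7 ± 4.09 RPKM (SD, n = 2 each).

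The members with the smallest p moved in both directions. Hist4h4 had the smallest, with a log2 fold change of 0.32 (95% interval 0.12 to 0.52; limma adjusted p = 0.128). Hist2h2ac had 0.33 (0.10 to 0.56; limma adjusted p = 0.144), and Hist1h4c 0.18 (0.004 to 0.35; limma adjusted p = 0.229). Hist1h2bh, an H2B gene with 4 to 6 reads per library, had 0.40 (limma adjusted p = 0.198). On the other side, Hist1h4b had 6.24 and 5.71 RPKM in vehicle and 4.798 and 4.14 RPKM in GW4064, a log2 fold change of -0.41 (95% interval -0.69 to -0.13; limma adjusted p = 0.144). The H2B gene Hist2h2be had 1.02 and 0.961 RPKM, then 0.647 and 0.805 RPKM (log2 fold change -0.41, limma adjusted p = 0.192). Hist1h4i, with 9 and 17 reads in vehicle and 6 and 6 in GW4064, had -0.98 (limma adjusted p = 0.207). H4 genes are thus found on both sides, and none of these differences held after adjustment over all genes.

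In RNA-seq, replicate libraries of histone genes differed by about as much as counting allows. Between both vehicle libraries the mean squared difference of reads was 0.832 times that given by counting alone over 41 members, and between both GW4064 libraries 1.11 times over 39. Between treatments it was 0.76 to 1.20 times. Other genes with no more reads than the highest member stood at 1.71 and 2.35 times between replicates and 2.99 to 3.51 times between treatments. They were not matched to the members in reads. In GRO-seq, which has no replicates here, members stood at 2.04 times between treatments in WT and 1.12 times in FXR KO. Between genotypes they stood at 1.05 times in vehicle and 2.79 times after GW4064. Other genes stood at 2.82, 1.51, 2.30 and 2.04 times in these comparisons. No test was made of this description.

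Nascent RNA was compared next. In WT, 14 members had at least 20 reads in 1 library of the pair. Of these, 2 were more than 2-fold lower after GW4064 and none 2-fold higher, where 1.42% and 2.35% of all 14019 genes were. The median log2 ratio was -0.16 for members and -0.08 for all genes, and 11 of the 14 members were negative. The share of all genes that were negative was not computed. With ratios centred on the median of all genes, the median of the members was -0.08. Summed over all 69 members, RPM were 0.824 times those of vehicle (95% counting interval 0.743 to 0.913).

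The 2 lower members were a linker histone and an H4 gene. Hist1h1d had 45 reads in WT vehicle and 12 in WT GW4064, or 4.10 and 1.46 RPKM, a ratio of 0.357 (0.172 to 0.686). Hist1h4b had 32 and 10 reads, or 5.03 and 2.10 RPKM, a ratio of 0.418 (0.183 to 0.872). With 1 library a condition, neither ratio has a replicate check, and the intervals cover counting only. Hist1h1e, the member with most GRO-seq reads, had 146 and 70 reads, or 13.2 and 8.46 RPKM, a ratio of 0.642 (0.475 to 0.859). The means of its total RNA were 20.04 and 21.7 RPKM. For Hist1h4b both assays gave lower values in GW4064, while for Hist1h1d total RNA was 6.55 ± 0.353 RPKM in vehicle and 6.43 ± 0.831 RPKM in GW4064 (SD, n = 2 each).

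Other leading members showed ratios whose intervals include 1. Hist1h4d had 89 and 77 reads, a ratio of 1.16 (0.842 to 1.59), and Hist1h1c had 77 and 57 reads, a ratio of 0.990 (0.691 to 1.41). For Hist1h4c the ratio was 0.959 (0.648 to 1.41), for Hist1h4h 0.864 (0.532 to 1.39) and for Hist2h2ac 1.08 (0.647 to 1.80). Hist1h2bc had the highest ratio of the 14, at 1.55 (0.981 to 2.46), with 5.73 and 8.88 RPKM. Their ratios lay on both sides of 1.

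**Figure D3:**
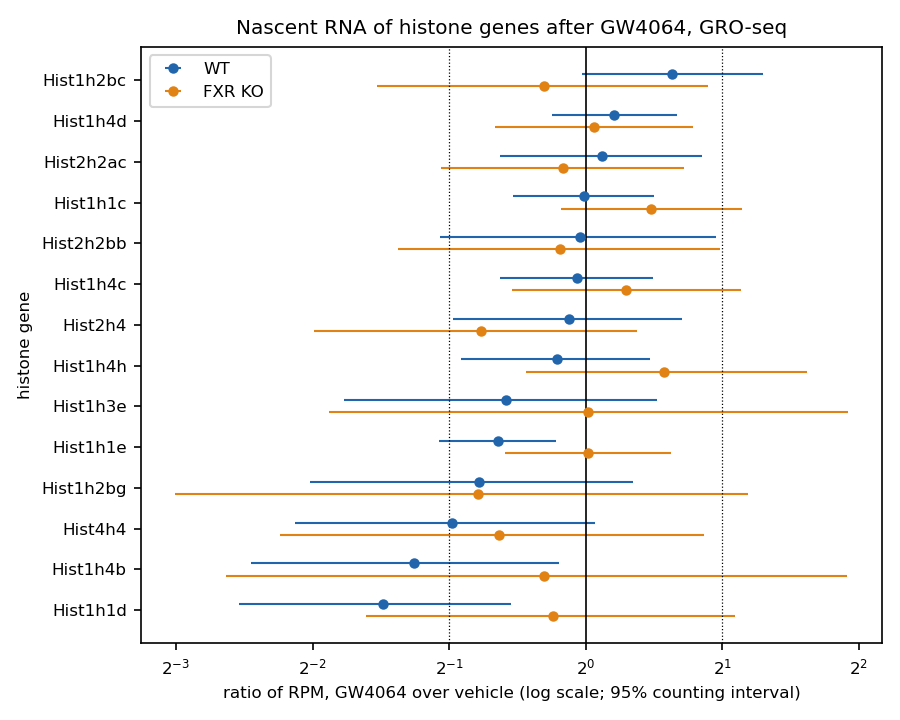
Ratio of nascent RPM, GW4064 over vehicle, for the 14 histone genes with at least 20 reads in a WT library, on a log axis; points are single-library ratios for WT and FXR KO and bars are 95% counting intervals. In WT, Hist1h1d, Hist1h4b and Hist1h1e lie left of 1 with their whole interval, and in FXR KO every interval drawn includes 1.

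In FXR KO, 6 members reached 20 reads and none was 2-fold changed, where 0.733% of all 11862 genes were higher and 0.565% lower. Their median log2 ratio was 0.18, with 5 of 6 positive, and the summed RPM were 1.01 times those of vehicle (0.869 to 1.17). The median of all genes was -0.03, and the share of all genes that were positive was not computed. Hist1h1e had 48 reads in each library, or 11.95 and 12.1 RPKM, a ratio of 1.01 (0.665 to 1.55). Hist1h1c had 35 and 48 reads, or 9.40 and 13.1 RPKM, a ratio of 1.39 (0.881 to 2.22). Hist1h1d had 12 and 10 reads and Hist1h4b 5 and 4, too few to be counted. The difference between genotypes in the response to GW4064 was not tested, as each has 1 library per treatment.

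Between genotypes in vehicle, 14 members reached 20 reads, 1 was 2-fold lower in FXR KO and none 2-fold higher, where 1.46% and 1.34% of all 13884 genes were. The lower one was Hist1h4b, with 32 reads in WT and 5 in FXR KO, a ratio of 0.431 whose interval includes 1 (0.131 to 1.11). Hist2h2ac was higher, with 5.59 RPKM in WT and 10.4 RPKM in FXR KO, a ratio of 1.86 (1.07 to 3.18). Summed over members the ratio was 1.04 (0.920 to 1.17). After GW4064, 8 members reached 20 reads and none passed 2-fold, where 1.75% of all 13229 genes were higher and 3.45% lower. The summed ratio of FXR KO over WT was then 1.27 (1.11 to 1.45), and Hist1h1c had 7.43 RPKM in WT and 13.1 RPKM in FXR KO, a ratio of 1.76 (1.17 to 2.63). The WT GW4064 library enters both this comparison and the WT response, and it had the lowest level of histone reads of the 4 (57.2 RPM, against 69.4 to 72.6).

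Total RNA was then set against nascent RNA in vehicle-treated mice, as log2 of the mean of both vehicle RNA-seq libraries over the WT vehicle GRO-seq library, after 0.1 RPKM was added. The assays were prepared and scaled separately, so the level of this ratio is relative. Over the 22 members with at least 20 reads in 1 of these libraries the median log2 ratio was 1.05, and 21 were positive. The ratio was positive in 75.6% of all genes and in 82.8% of the rows in the length range of the members. In 11 of the 22 the ratio was 2-fold or more, where 16.1% of all 14769 genes and 49.9% of the 1265 rows in the length range of the members were. None of the 22 was 2-fold or more below, where 1.94% of all genes and 5.22% of those rows were. All genes had a median of 0.34 and rows of that length range a median of 0.99. The median of the histone genes was 0.057 above that of the rows of like length. This difference was -0.092 with the FXR KO vehicle library, -0.144 over the 10 members with at least 50 reads, -0.047 without the second vehicle RNA-seq library and 0.425 in the GW4064 libraries, so its direction turned with these choices. Replication-independent histone genes had a median of 0.61 over 10 genes. Their rows include far longer ones, such as H2afy (61928 bases) and H2afv (17217 bases), so this median is not matched to the members for length.

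Members differed widely in this ratio. Hist1h1c, at 25.8 RPKM of total and 7.504 RPKM of nascent RNA, had a log2 ratio of 1.77. Hist1h1e, of the same class, had 20.04 and 13.2 RPKM and a log2 ratio of 0.60, so the linker histone gene with most nascent reads was not the one with most total RNA. Hist1h3e had 1.59, Hist1h2bc 1.43, Hist1h4d 1.00 and Hist2h2ac 0.96. Hist1h4k had the highest value, 3.61, which rests on 1 nascent read against 16 and 21 reads of total RNA. Hist1h2bg was the single one of the 22 with less total than nascent RNA, at -0.29, with 2.17 and 3.54 RPKM of total and 3.51 RPKM of nascent RNA. Hist1h4j, below the limit on reads in vehicle, had 18 and 10 reads in the vehicle RNA-seq libraries and 0 in WT vehicle GRO-seq.

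**Figure D4:**
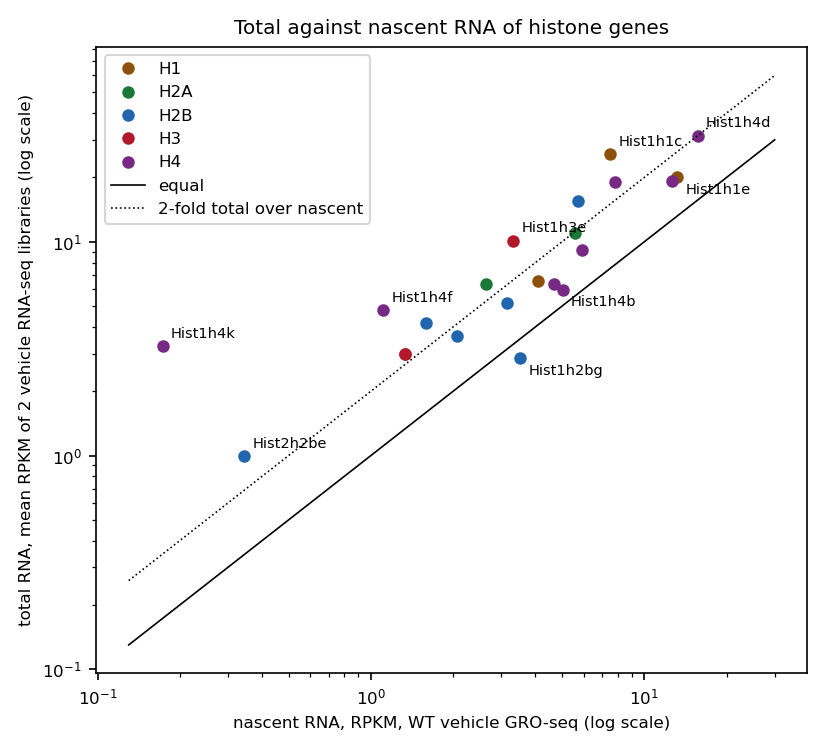
Total RNA (mean RPKM of 2 vehicle RNA-seq libraries) against nascent RNA (RPKM of the WT vehicle GRO-seq library) for 22 histone genes, both axes on a log scale and coloured by class; the solid line marks equal values and the dotted line a 2-fold ratio. Members with more nascent RNA tend to have more total RNA, and Hist1h2bg alone lies below the solid line.

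Both assays ranked the members alike, with a Spearman correlation across genes of 0.85 over all 69 members and 0.88 over those 22. Genes are not independent replicates, and both assays share row lengths and the same mappable sequence, so no p is given.

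Many core histone genes are transcribed outward from a shared promoter region, with an H2A and an H2B gene on opposite strands. There were 12 pairs of neighbouring members of this kind with gaps of 164 to 608 bases, most of them an H2A and an H2B gene, and the levels of several partners lay far apart. Hist1h2ac and Hist1h2bc start 240 bases apart, and their mean levels in RNA-seq were 1.29 and 15.9 RPKM, a 12.3-fold difference. Their nascent RNA was 1.96 and 6.47 RPKM on average over the 4 GRO-seq libraries, 3.30-fold apart, so the gap was wider in total RNA. Hist2h2ac and Hist2h2be, 192 bases apart, had 12.4 and 0.859 RPKM in RNA-seq (14.4-fold) and 7.84 and 0.277 RPKM in GRO-seq (28.3-fold). The row of Hist2h2be is 2666 bases long against 467 bases for Hist2h2ac. In reads, Hist2h2ac and Hist2h2be held 323 and 128 in RNA-seq and 114 and 27 in GRO-seq, so their gap in RPKM is wider than that in reads. Hist3h2a exceeded Hist3h2bb-ps, a pseudogene, by 27.6-fold in RNA-seq, with 6 reads of the pseudogene over the 4 libraries. In other pairs both were low, as with Hist1h2ak and Hist1h2bn at 1.37 and 1.73 RPKM.

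Histone genes of 1 class resemble each other closely, and a read that matches several genes equally well cannot be placed. In 63 members the share of 100-base windows (the read length of RNA-seq) that also occur in a gene elsewhere was computed from GENCODE vM21 transcripts. It had a median of 34.7% in the 41 members that reached a mean of 0.5 RPKM and 63.5% in the 22 below it. The 9 members of the top 10 by RNA-seq reads for which it could be computed had a median of 8.57%, with 0% in Hist1h4d and 11.8% in Hist1h1c. The 17 members under 10% had a median of 3.22 RPKM, the 22 from 10% to 50% had 1.76 RPKM and the 24 over 50% had 0.409 RPKM in RNA-seq. In GRO-seq the medians of these sets were 2.06, 1.18 and 0.279 RPKM. Spearman's correlation of the share with the level was -0.42 in RNA-seq (100-base windows) and -0.42 in GRO-seq (80-base windows) over the 63 members. The table does not show how reads with several matches were treated, and how far shared sequence sets the levels of these genes was not tested. A low value of a member such as Hist1h4k, with 64.3% of windows shared, is therefore uncertain as a level.

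**Figure D5:**
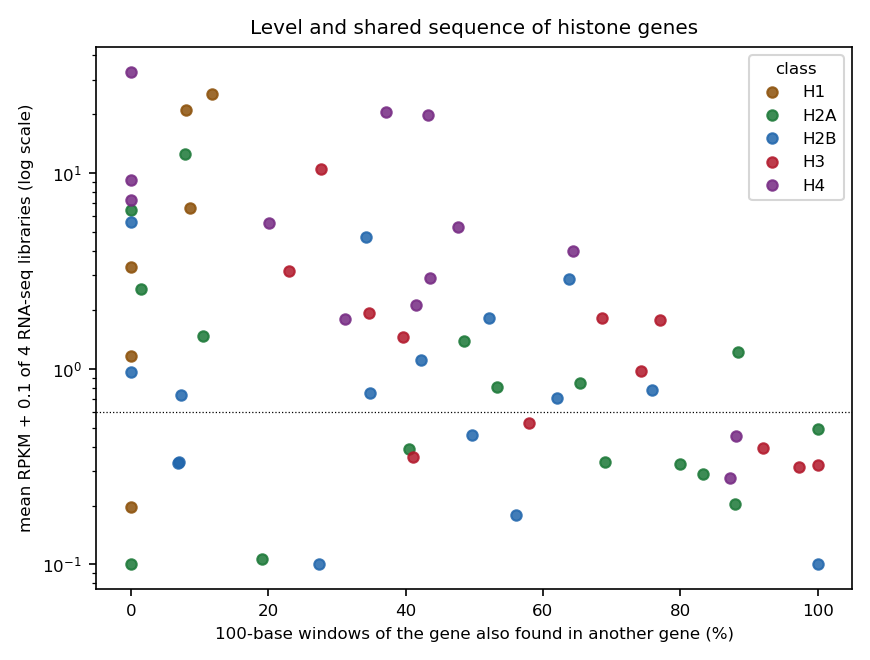
Mean RPKM plus 0.1 over the 4 RNA-seq libraries (log axis) against the percent of 100-base windows of a gene that also occur in another gene, for 63 histone genes coloured by class; the dotted line marks the filter at 0.5 RPKM. Genes above 10 RPKM all lie under 50% shared, and genes over 50% reach at most 3.90 RPKM.

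Genes that act with the histone genes were examined as lists. None of the 12 lists held a gene past the threshold, where 3.28% of all genes tested passed. Of 12 replication-independent histone genes 9 were tested, with a median log2 fold change of -0.007. H3f3b, which encodes the replacement histone H3.3, had 15.4 and 16.5 RPKM in vehicle and 18.5 and 18.9 RPKM in GW4064 (log2 fold change 0.23, limma adjusted p = 0.165), followed by H2afy (-0.09) and H3f3a (0.10). H1f0, the linker histone known from non-dividing cells, was at 22.8 to 26.4 RPKM, a range that overlaps that of Hist1h1c; it is named for its role and its values were seen first.

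Of 24 symbols listed for the transcription, processing and decay of histone mRNA, 21 had a row and 18 were tested, with a median of -0.02. The smallest p were those of Mtpap, a poly(A) polymerase (log2 fold change 0.29, limma adjusted p = 0.0985), the cap-binding gene Ncbp1 (0.12) and Mbtd1 (-0.11). Slbp, named for its role after its values were seen, had 1.27 and 1.27 RPKM in vehicle and 1.29 and 1.34 RPKM in GW4064. Of 22 histone chaperones 17 were tested, with a median of 0.03, led by Hjurp, the chaperone of the centromeric histone (7.62 and 11.04 RPKM on average, log2 fold change 0.54, limma adjusted p = 0.112), Nap1l1 (-0.33) and Cabin1 (0.43).

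Of 35 S phase and proliferation genes only 11 reached the mean of 0.5 RPKM, with a median change of -0.14 and a summed level of 20.01 to 22.6 RPKM over the list in RNA-seq. Ccnd1, the G1 cyclin D1, had 1.33 and 1.88 RPKM on average (log2 fold change 0.47, limma adjusted p = 0.145). Rrm2, a subunit of ribonucleotide reductase, had 1.03 and 0.785 RPKM (-0.35, limma adjusted p = 0.187), and the clamp loader subunit Rfc1 had -0.23. Among the 8 marker lists the medians of the log2 fold change were -0.06 for hepatocytes (7 of 7 tested), 0.01 for Kupffer cells and macrophages (6 of 8), -0.04 for sinusoidal endothelial cells (7 of 7), 0.15 for stellate cells (6 of 6), 0.007 for cholangiocytes (2 of 5), -0.09 for lymphocytes (1 of 8), 0.14 for neutrophils (3 of 6) and 0.14 for red cells and erythroblasts (6 of 7). The smallest adjusted p among markers was 0.0612, of the hepatocyte gene Ttr. In a bulk sample, fewer cells of a type and less RNA per cell cannot be told apart.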

How the data were processed

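Of the 8 libraries, 4 are RNA-seq (2 per treatment) and 4 GRO-seq (1 per genotype and treatment). The deposited values are RPKM computed by the authors, who mapped reads to mm10 with STAR 2.7.3a and quantified RefSeq genes with HOMER. The submitters' processing notes further list bcl2fastq and FastQC. Rows span whole genes with introns. Multiplying RPKM by row length and by a fitted library total returned whole reads (99.99% to 100% of testable values within 0.15 reads), and these rebuilt reads were used for counting intervals. Rebuilt totals are lower than the uniquely mapped reads that the study states, for a reason not given in the sources used here.

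RNA-seq was tested with limma 3.58.1 in R 4.3.3 on log2(RPKM + 0.1), treatment as the only term, eBayes with trend, genes at a mean of at least 0.5 RPKM, and Benjamini-Hochberg adjustment over all 11408 genes (threshold 0.05); fold changes are on this scale and understate those of low genes. The study names DESeq2, a count method that was not applied to RPKM. GRO-seq ratios are of RPKM + 0.1, counted past 2-fold with at least 20 reads in 1 library of the pair, with exact (Clopper-Pearson) 95% counting intervals of read ratios. Ratios and intervals were computed in Python 3.11.15 (scipy 1.17.1, pandas 2.3.3, numpy 2.4.6) and plots drawn with matplotlib 3.10.9. Replicate libraries come from separate pools of mice.

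Named members are those past a threshold, the 12 with most RNA-seq reads, the 8 with most GRO-seq reads and, from each of 12 gene lists, the 3 with the smallest p; members at an unadjusted p under 0.05, and others singled out, were named after their values were seen. Members and lists were chosen with earlier results of these data known. Alternatives were other added values, filters, scalings, a count model, a replicate block and leaving out each library. On simulated counts for the RNA-seq comparison (11396 genes fitted), limma recovered 16.4% of genes changed 1.5-fold, 75.8% at 2-fold and 91.9% at 4-fold. It called 27 of 11205 unchanged genes. Limma-voom recovered 82.1%, 95.2% and 98.4% at these folds and called 3 of the unchanged genes. The changed genes were drawn from all genes kept. Histone members had wider intervals (median half-width 0.52 against 0.23 for all genes), so these rates are not those of the members.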

Additional observations from a re-analysis of the deposited data

Results flagged for a closer look

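Hist1h4a, an H4 gene, was lower after GW4064 in WT and higher in FXR KO in GRO-seq, with a counting interval that excludes 1 in each. This difference was not tested because each condition has 1 library. It had 10 reads in WT vehicle and 1 in WT GW4064 (log2 ratio -2.42, ratio 0.134, 95% counting interval 0.003 to 0.941), and 2 reads in FXR KO vehicle and 13 in FXR KO GW4064 (ratio 6.59, 1.49 to 60.2). It was picked by a search of all 69 members, as the single one whose intervals lay on opposite sides of 1. The share of all genes with this pattern was not computed. No library gave it more than 15 reads, below the limit of 20 used for the other GRO-seq comparisons. Of its 100-base windows, 41.5% also occur in a gene elsewhere. In RNA-seq it had 2.06 and 2.20 RPKM in vehicle and 1.42 and 2.36 RPKM in GW4064, which overlap.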

How the results depend on the processing

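No histone member passed the threshold under any alternative, including limma-voom on rebuilt reads with a filter at a mean of 10 reads, chosen after seeing the data. Over all genes, calls numbered 374 as reported, 1003 (522 higher, 481 lower) with limma-voom, 1167 (620 higher, 547 lower) with limma-voom at that filter, and 0 with the replicate block, under which 0 members were called as well. The libraries share only a number: deviations of same-numbered libraries from their group means correlated at -0.02 over all genes tested and at 0.26 over the 43 members. Leaving out a library gave 0 to 43 calls over all genes; the 43 came without the first vehicle library, and 0 without any of the others. Members at an unadjusted p under 0.05 numbered 7 of 43 tested as reported, where 21.2% of all genes tested did so. With other filters they numbered 13 of 60 at 0.1 RPKM (18.8%), 4 of 35 at 1 RPKM (22.1%) and 4 of 31 at a mean of 10 rebuilt reads (19.7%). Limma-voom gave 0 of 43 (24.0%), and 0 of 31 at a mean of 10 rebuilt reads (21.2%). The median change of members ranged from 0.006 to 0.195 without 1 library, the highest value being that without the first GW4064 library. Of 16 single members followed, 250 values were computed, 231 kept their direction, 19 reversed and 0 passed the threshold; under quantile normalization these were Hist1h1e (-0.045), Hist1h4d (-0.031), Hist1h4h (-0.052), Hist1h2bc (-0.11), Hist1h3e (-0.023) and Hist3h2a (-0.052). Without 1 library, values ranged from -0.24 to 0.13 for Hist1h1c, -0.088 to 0.30 for Hist1h1e, -0.070 to 0.25 for Hist1h4h, -0.11 to 0.20 for Hist1h2bc, -0.16 to 0.10 for Hist1h1d, -0.070 to 0.21 for Hist1h3e, -0.11 to 0.060 for Hist2h4 and -0.20 to 0.21 for Hist3h2a. In GRO-seq, members 2-fold changed in WT numbered 2 of 14 compared as reported (3.77% of all genes), 1 of 14 with 1 RPKM added (1.51%), 4 of 26 at 10 reads (3.73%) and 0 of 4 at 50 reads (3.86%). In FXR KO they numbered 0 of 6, and 1 of 13 at 10 reads (1.69%). Between genotypes in vehicle they numbered 1 of 14, then 0 of 14 with 1 RPKM added (0.944%), 2 of 26 at 10 reads (3.10%) and 0 of 4 at 50 reads (2.41%), and after GW4064 0 of 8, and 3 of 20 at 10 reads (5.24%). The median total to nascent log2 ratio was 1.05, 0.77 with 1 RPKM added, 1.46 in the GW4064 libraries of both assays, 0.89 with the FXR KO vehicle library, 0.057 against the median of rows in the members' length range, and 0.93 to 1.11 without 1 vehicle library. In 46 of 69 members no library held 20 reads.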
